A study of Homo sapiens with 6 samples.

Results

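HT-1080 is an adherent human fibrosarcoma line that carries an activated NRAS allele. It was treated for 48 h with 2 µM palbociclib, an inhibitor of the cyclin D kinases CDK4 and CDK6, or with DMSO, the vehicle. The comparison described here is palbociclib against DMSO, at 2 libraries each, recomputed from the raw read counts of the 4 libraries among the 6 of the series. The other 2 libraries came from cells given 500 nM pimasertib, which blocks MEK1 and MEK2, for the same 48 h. No group carries an engineered allele, and all 6 libraries come from the same line. Of 26286 genes listed, 14839 had enough reads to be tested, and 509 of these stand on 4 lists of cell cycle genes (replication, mitosis, repair, S-phase histones). The remaining 14330 genes carry most of the description.

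Cyclin D with CDK4 or CDK6 phosphorylates the retinoblastoma protein, which otherwise holds E2F factors silent. When the kinases are inhibited, E2F genes of S phase stay off, and the DREAM complex, which holds RB-related pocket proteins, represses genes of G2 and M phase through CHR elements in their promoters. Cells then rest in G1, a state in which growth-restraining genes such as FOXO targets and MXD repressors are often active.

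Total counts ranged from 13607490 to 17500655 over the 6 libraries, and 3 reads, taken as the limit that a count of 0 allows, correspond to 0.168 to 0.220 CPM (read counts scaled to a common library total). Values are TMM-normalized CPM and are compared between libraries only within a gene. The mesenchymal marker VIM had 1191 and 1040 CPM in palbociclib libraries, against 999 and 988 CPM in DMSO libraries. The epithelial gene CDH1 and the leukocyte gene PTPRC had 0 counts in all 4 libraries, and EPCAM had at most 5, but the epithelial keratin KRT8 had 252 and 346 CPM with palbociclib and 201 and 192 CPM with DMSO, and KRT18 had 123 and 107 CPM with palbociclib and 148 and 116 CPM with DMSO. On the endothelial list VWF had 0 counts in all 4 libraries and CDH5 at most 5, while TIE1 had 262 and 341 CPM with palbociclib and 130 and 219 CPM with DMSO, and EGFL7 had 24.9 and 41.3 CPM with palbociclib and 12.7 and 28.9 CPM with DMSO. The labels do not state that replicates are separate cultures, and the spread behind each p-value may therefore be technical. In bulk RNA, fewer cells of a type and less RNA per cell cannot be told apart.

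Palbociclib replicate 2 stood apart from the other 5 libraries in a small set of transcripts. Leaving out XIST, which is not reported here, it held 16 genes with at least 50 counts that summed to at most 5 counts over the other 5 libraries together, whereas each of the other libraries held 0 such genes. IGFBP3, a carrier of insulin-like growth factors, had 0 and 649 counts in palbociclib libraries, against 0 and 0 counts in DMSO libraries. CALB1, ADAMTS5, WNT7A, MYH14 and LLGL2 had 0 counts in palbociclib replicate 1 and 197, 100, 77, 65 and 53 counts in replicate 2. The 16 genes made up 0.0108% of the library's reads, and all were too uneven to be tested. On the epithelial list, KRT19 had 0 and 164 counts with palbociclib and 0 and 3 counts with DMSO, and KRT14 had 0 and 36 counts with palbociclib and 0 and 0 with DMSO. Summed over the 5 epithelial genes tested, the level was 381 to 460 CPM with palbociclib and 315 to 353 CPM with DMSO. Their part in the results was not tested, and calls are therefore given below with and without this library.

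**Figure D1:**
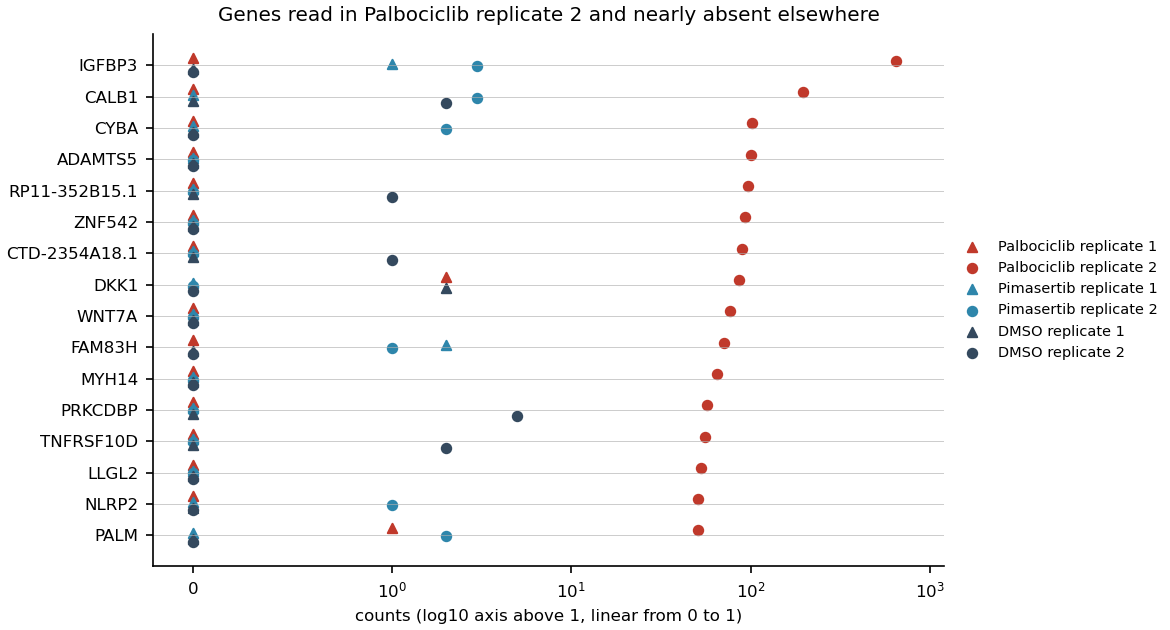
Counts of 16 genes in each of the 6 libraries, on an axis that is linear from 0 to 1 and log10 above 1. Triangles are replicate 1 and circles replicate 2. Palbociclib replicate 2 holds 51 to 649 counts of each gene, and no other library holds more than 5.

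By edgeR's quasi-likelihood test, adjusted by the Benjamini-Hochberg method across the 14839 genes, 526 (3.54%) passed an adjusted p of 0.05. Of these, 164 were higher (1.11%) and 362 were lower (2.44%) with palbociclib. The cell cycle lists held 235 of the lowered genes, which is 46.2% of their 509 tested members, and 1 raised gene. Outside the lists 290 genes passed (2.02% of 14330), of which 163 were higher (1.14%) and 127 were lower (0.886%). The decrease thus lay mostly on the lists and the increase almost wholly outside them. Members of these and the other lists were chosen with earlier results of these data known, so counts by list are descriptive only. All called genes had libraries that did not overlap between groups, as had 23.5% (higher) and 23.3% (lower) of all tested genes. Outside the lists the median fold change on the log2 scale was 1.26 for raised genes and −1.295 for lowered genes, against 0.023 for all 14330. When each of the 6 libraries was left out in turn, 39 of the raised and 39 of the lowered genes passed in every fit. Without palbociclib replicate 2, 79 of the 163 raised genes passed, and all 163 kept their sign. Palbociclib replicate 1 alone was at least 2-fold above the DMSO mean in 129 of the 163. All 163 were called with replicate 1 included and without overlap between groups. The kept sign and the 2-fold count were thus largely fixed by that choice and are no separate test. Leaving out a pimasertib library removes no palbociclib or DMSO library and lowers the number of libraries from which the spread is estimated. The count of raised genes outside the lists was 92 without palbociclib replicate 2, 60 without DMSO replicate 1, 382 without palbociclib replicate 1, 311 without DMSO replicate 2, and 69 and 68 without pimasertib replicates 1 and 2. The count of lowered genes there was 76 without palbociclib replicate 2 and 67 and 63 without pimasertib replicates 1 and 2.

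**Figure D2:**
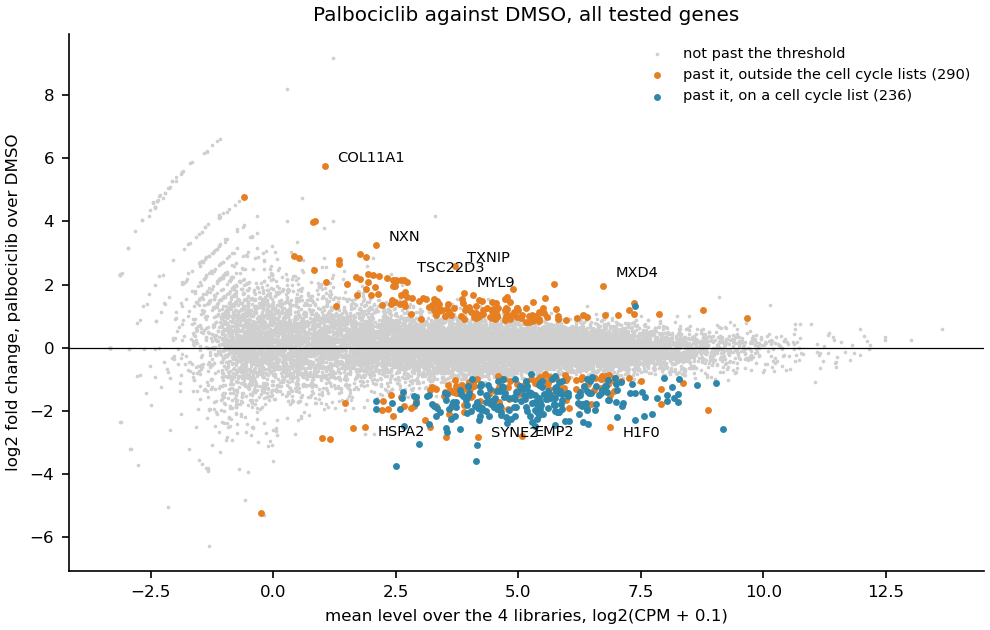
Mean level over the 4 libraries, as log2(CPM + 0.1), against the fitted log2 fold change of palbociclib over DMSO for 14839 tested genes. Grey points did not pass the threshold; orange points are the 290 that passed outside the cell cycle lists and blue points the 236 that passed on them. Blue points lie almost wholly below 0, and orange points lie on both sides.

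The drug's targets themselves did not pass the test. CDK4 had 145 and 120 CPM in palbociclib libraries, against 183 and 144 CPM in DMSO libraries (log2 fold change −0.31, SE 0.23, adjusted p = 0.541). CDK6 had 357 and 243 CPM with palbociclib and 298 and 220 CPM with DMSO (adjusted p = 0.766), and RB1 had 74.9 and 84.3 CPM with palbociclib and 94.97 and 93.1 CPM with DMSO (adjusted p = 0.65). For CDK4 and CDK6 the groups overlapped. MKI67, which encodes the proliferation marker Ki-67, had 195 and 141 CPM with palbociclib and 1172 and 816 CPM with DMSO, and fell by 2.57 on the log2 scale (SE 0.28, adjusted p = 0.00163). CDKN1A, the p21 inhibitor gene, had 231 and 268 CPM with palbociclib and 316 and 311 CPM with DMSO (adjusted p = 0.475). CCND1, the cyclin D1 gene, had 2472 and 1564 CPM with palbociclib and 1469 and 901 CPM with DMSO (adjusted p = 0.245). By list, 84 replication genes, 131 of 234 mitosis genes and 21 of 86 repair genes were lower, with median log2 fold changes of −1.06, −1.22 and −0.495. None of the 23 replication-dependent histone genes passed, and 4 were higher and 2 lower at an unadjusted p under 0.05. Over all tested genes, 8.40% were higher and 9.58% lower at that unadjusted p. The 1 raised gene on these lists was TUBA1A, an alpha-tubulin, at 216 and 261 CPM with palbociclib and 85.8 and 107 CPM with DMSO (1.31 on the log2 scale, SE 0.25, adjusted p = 0.0177). Its adjusted p was 0.0628 without palbociclib replicate 2 and 0.0653 without DMSO replicate 1.

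Promoters of the called genes were read for letters that these regulators bind, in the window from 250 bases before to 50 bases after the start site given by RefSeq (GRCh38.p14). Both strands were searched for TTTGAA (CHR), for TTCCCGC or TTGGCGC (E2F), for CCAAT (the NF-Y element), for CACGTG (the E-box) and for TGTTTAC (the FOXO element). A CHR match stood in 35.9% of 195 lowered cell cycle promoters, 16% of 94 lowered promoters outside the lists, 12.7% of 118 raised ones, and 9.74% of the 10779 promoters found for tested genes. For E2F letters the shares were 37.4%, 21.3%, 7.63% and 14.5% in the same order, and for CCAAT 61.5%, 34%, 30.5% and 36.6%. Over all 27305 promoters in the table, CHR, E2F and CCAAT letters stood in 15.4%, 9.33% and 35.7%. FOXO letters stood in 2.54% of raised and 1.06% of lowered promoters outside the lists, against 2.28% of those of tested genes and 3.41% of all promoters. The E-box stood in 9.32% of raised and 6.38% of lowered promoters, against 10.2% of those of tested genes and 7.43% of all promoters. A match describes the letters only, and E2F and CCAAT matches can overlap.

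The promoters below were picked by hand from named genes and all hold a match, so they do not show how common matches are. Of lowered genes not shown, STARD8 and FST held a CHR match, HSPA2 and PASK held CCAAT only, and ELOVL2 and DHRS2 held none of these letters. Of raised genes not shown, PTPRR, ABLIM1 and PIK3R3 each held 1 CHR match, and SESN3 and TSC22D3 held no match. Each is 5′ to 3′ on the gene's own strand in GRCh38.p14, and capitals mark CHR, E2F, E-box or FOXO matches on either strand. SPC25, a kinetochore subunit on the mitosis list (chr2:168890381-168890680, minus strand), holds CHR matches at −247 and −3 and an E2F match at −20.
SPC25: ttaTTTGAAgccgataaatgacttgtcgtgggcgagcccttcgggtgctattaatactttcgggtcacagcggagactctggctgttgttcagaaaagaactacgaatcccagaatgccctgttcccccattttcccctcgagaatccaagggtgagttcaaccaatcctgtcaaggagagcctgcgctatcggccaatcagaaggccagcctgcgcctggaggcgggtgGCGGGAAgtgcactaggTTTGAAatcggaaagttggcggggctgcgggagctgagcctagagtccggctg
EMP2 (chr16:10580549-10580848, minus strand), outside the lists, holds an E2F match at −224 and a CHR match at −29.
EMP2: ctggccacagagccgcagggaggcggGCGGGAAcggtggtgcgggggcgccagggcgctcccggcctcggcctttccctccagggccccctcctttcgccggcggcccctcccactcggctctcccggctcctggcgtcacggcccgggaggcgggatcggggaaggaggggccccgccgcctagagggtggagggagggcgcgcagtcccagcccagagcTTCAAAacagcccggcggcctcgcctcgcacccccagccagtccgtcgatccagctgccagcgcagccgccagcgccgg
GPSM2 (chr1:108876735-108877034, plus strand) holds a CHR match at −34 and a CCAAT at −68.
GPSM2: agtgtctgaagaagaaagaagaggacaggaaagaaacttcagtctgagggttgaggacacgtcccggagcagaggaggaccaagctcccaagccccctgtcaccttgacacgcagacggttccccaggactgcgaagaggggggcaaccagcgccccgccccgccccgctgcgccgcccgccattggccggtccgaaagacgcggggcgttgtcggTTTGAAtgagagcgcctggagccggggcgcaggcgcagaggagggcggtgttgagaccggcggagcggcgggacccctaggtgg
SYNE2 (chr14:63852754-63853053, plus strand) holds an E2F match at −23.
SYNE2: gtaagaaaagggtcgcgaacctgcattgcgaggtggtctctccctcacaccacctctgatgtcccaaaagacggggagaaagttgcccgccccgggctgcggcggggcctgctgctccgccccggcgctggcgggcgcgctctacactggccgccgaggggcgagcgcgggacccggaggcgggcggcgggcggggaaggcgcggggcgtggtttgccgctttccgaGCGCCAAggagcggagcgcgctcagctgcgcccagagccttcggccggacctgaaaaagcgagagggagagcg
H1FX, listed by RefSeq as H1-10 (chr3:129316237-129316536, minus strand), holds an E2F match at −87.
H1FX: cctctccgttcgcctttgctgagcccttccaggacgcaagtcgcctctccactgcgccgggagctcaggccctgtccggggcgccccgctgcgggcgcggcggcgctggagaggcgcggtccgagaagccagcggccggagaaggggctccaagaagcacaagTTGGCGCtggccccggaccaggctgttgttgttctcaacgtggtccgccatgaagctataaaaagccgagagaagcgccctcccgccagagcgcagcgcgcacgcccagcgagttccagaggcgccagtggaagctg
TXNIP, a raised gene (chr1:145996530-145996829, minus strand), holds a FOXO match at −124 between CCAAT letters at −140 and −105.
TXNIP: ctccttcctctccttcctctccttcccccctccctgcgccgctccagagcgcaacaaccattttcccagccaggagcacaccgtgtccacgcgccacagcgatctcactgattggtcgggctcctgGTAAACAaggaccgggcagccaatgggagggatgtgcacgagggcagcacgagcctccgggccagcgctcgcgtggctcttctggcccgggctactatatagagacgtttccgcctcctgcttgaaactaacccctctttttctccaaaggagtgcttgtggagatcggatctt
MXD4, also raised (chr4:2262060-2262359, minus strand), holds an E-box match at −238.
MXD4: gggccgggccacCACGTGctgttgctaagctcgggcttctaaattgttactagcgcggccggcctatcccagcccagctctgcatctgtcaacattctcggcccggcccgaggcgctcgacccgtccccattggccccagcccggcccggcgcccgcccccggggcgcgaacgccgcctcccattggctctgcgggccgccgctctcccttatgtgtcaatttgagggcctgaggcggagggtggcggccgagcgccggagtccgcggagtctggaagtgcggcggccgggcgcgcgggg

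Some of the lowered genes outside the lists act at the nuclear envelope or on chromatin, a grouping made after their values were seen. SYNE2, the giant nesprin-2 that ties the nucleus to the cytoskeleton, had 4.69 and 4.31 CPM in palbociclib libraries, against 35.8 and 27.7 CPM in DMSO libraries. It fell by 2.82 on the log2 scale (SE 0.25, adjusted p = 0.000974), with no overlap between groups. H1F0, a linker histone gene whose product compacts nucleosomes and is usually abundant in resting cells, had 33.2 and 37.5 CPM with palbociclib and 207 and 194 CPM with DMSO (−2.50, SE 0.21, adjusted p = 0.000893). The replication-independent H1FX had 38.4 and 42.6 CPM with palbociclib and 138 and 139 CPM with DMSO (−1.77, SE 0.21, adjusted p = 0.00202). These were the 2 of 7 linker and variant histone genes that passed, and the list's median was −0.28. The share lowered among all tested genes was 2.44%.

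Other chromatin and envelope genes were chosen for description after their values were seen. WHSC1, the H3K36 methyltransferase NSD2, had 117 and 102 CPM with palbociclib and 431 and 320 CPM with DMSO (−1.78, SE 0.24, adjusted p = 0.003). GSG2, the histone H3 kinase haspin, had 7.04 and 6.05 CPM with palbociclib and 27.5 and 18.1 CPM with DMSO (−1.80, SE 0.28, adjusted p = 0.00584). In both genes the lowest DMSO library was more than 2-fold above the highest palbociclib library. CBX2, a Polycomb subunit, fell by 1.46 (SE 0.25, adjusted p = 0.00978), and NRM, the inner nuclear membrane protein nurim, fell by 1.67 (SE 0.29, adjusted p = 0.0102). LBR, the lamin B receptor, had 58.5 and 81.2 CPM with palbociclib and 144 and 215 CPM with DMSO (−1.36, SE 0.26, adjusted p = 0.0186), and its adjusted p was 0.0548 without pimasertib replicate 2 and 0.0595 with the 4 libraries alone.

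Lowered genes of membranes and lipids are described next, as a grouping made after their values were seen. EMP2, a tetraspan membrane protein, had 8.87 and 8.23 CPM in palbociclib libraries, against 55.2 and 62.8 CPM in DMSO libraries (−2.79, SE 0.22, adjusted p = 0.000893). MBOAT1, an acyltransferase that puts monounsaturated fatty acids into lysophospholipids, had 2.27 and 3.42 CPM with palbociclib and 18.5 and 21.8 CPM with DMSO (−2.81, SE 0.30, adjusted p = 0.00163). The DMSO libraries exceeded the palbociclib libraries by more than 5-fold in both genes. ELOVL2, which elongates polyunsaturated fatty acids, had 5.35 and 6.27 CPM with palbociclib and 22.7 and 24.8 CPM with DMSO (−2.03, SE 0.25, adjusted p = 0.00217). DHRS2, a short-chain dehydrogenase of mitochondria and nucleus, had 177 and 206 CPM with palbociclib and 748 and 741 CPM with DMSO (−1.96, SE 0.23, adjusted p = 0.00174). TMEM97, the sterol-linked sigma-2 receptor, had 20.2 and 18.7 CPM with palbociclib and 55.4 and 71.8 CPM with DMSO (−1.71, SE 0.22, adjusted p = 0.00246). All 5 passed in every fit with 1 library left out. Of 65 fatty acid and phospholipid genes tested, 3 were lower (MBOAT1, ELOVL2 and AGPAT9) and 2 were higher (PLA2G4C and PLD1), with a median of −0.096. Among all tested genes, 2.44% were lower and 1.11% higher at the same adjusted threshold. The calls of AGPAT9, PLA2G4C and PLD1 ended without palbociclib replicate 2 (adjusted p = 0.155, 0.0871 and 0.148), without pimasertib replicate 1 (0.0839, 0.0822 and 0.0735) and without pimasertib replicate 2 (0.0889, 0.0842 and 0.0747). That of AGPAT9 also ended without DMSO replicate 2 (0.107), and those of PLA2G4C and PLD1 without DMSO replicate 1 (0.134 and 0.18). None of the 33 cholesterol genes passed, and 1 was higher and 5 lower at an unadjusted p under 0.05, against 8.40% and 9.58% of all tested genes. GPX4, which reduces lipid hydroperoxides, had 63.7 and 84.7 CPM with palbociclib and 33.0 and 53.8 CPM with DMSO (0.78, SE 0.26, adjusted p = 0.149).

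Over the 14330 genes outside the lists, 0.886% were lower and 1.14% higher. Among 231 solute carrier genes, described as a family after values were seen, 7 were lower and 5 higher, with a median of −0.023. The transport genes below were picked in the same way. SLCO4A1, an organic anion carrier, had 28.8 and 27.1 CPM with palbociclib and 83.4 and 125 CPM with DMSO (−1.90, SE 0.30, adjusted p = 0.00597). ATP1B1, the beta subunit of the sodium pump, had 25.8 and 31.0 CPM with palbociclib and 66.4 and 90.1 CPM with DMSO (−1.46, SE 0.23, adjusted p = 0.00563). SLC29A1, a nucleoside carrier that supplies the salvage pathway, had 48.8 and 55.9 CPM with palbociclib and 111.6 and 156 CPM with DMSO (−1.35, SE 0.27, adjusted p = 0.0204). Each of these 3 genes passed with any 1 library left out. SLC4A8, a sodium-bicarbonate carrier, SLC8A1, a sodium-calcium exchanger, and LRRC8C, a subunit of volume-regulated anion channels, fell by 1.56, 1.53 and 1.64. CHRNA5, a nicotinic receptor subunit, had 1.98 and 1.90 CPM with palbociclib and 6.56 and 10.8 CPM with DMSO (−2.16, SE 0.39, adjusted p = 0.0117). No gene of the 49 on the ion channel list passed. At an unadjusted p under 0.05, 5 were higher and 2 lower, against 8.40% and 9.58% of all tested genes.

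A few lowered genes outside the lists, picked after their values were seen, serve division, the degradation of cell cycle inhibitors or RNA processing. Among all genes outside the lists, 0.886% were lower. GPSM2, which positions the mitotic spindle, had 9.83 and 11.3 CPM with palbociclib and 42.2 and 37.3 CPM with DMSO (−1.91, SE 0.22, adjusted p = 0.00163). SKP2, the F-box protein that marks the inhibitor p27 for destruction, had 17.2 and 17.8 CPM with palbociclib and 47.4 and 42.7 CPM with DMSO (−1.37, SE 0.20, adjusted p = 0.00445). TUBA3C, a tubulin with near-identical paralogs whose reads the counting could split, fell by 1.81 (SE 0.26, adjusted p = 0.00372). Of the RNA exosome genes, EXOSC9 had 12.4 and 10.3 CPM with palbociclib and 41.3 and 32.9 CPM with DMSO (−1.71, SE 0.23, adjusted p = 0.00307). EXOSC8 fell by 1.25 (adjusted p = 0.00986, and 0.0708 without palbociclib replicate 2), and 2 of 10 EXOSC genes passed in all. THOC6, a subunit of the mRNA export complex THO, fell by 1.38 (SE 0.22, adjusted p = 0.00682).

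The remaining lowered genes with large changes have separate roles. HSPA2, an HSP70 chaperone best known from the testis, had 0.807 and 1.29 CPM with palbociclib and 6.38 and 5.88 CPM with DMSO (−2.52, SE 0.42, adjusted p = 0.00841). STARD8, a GTPase-activating protein, had 2.57 and 3.19 CPM with palbociclib and 13.61 and 14.5 CPM with DMSO (−2.28, SE 0.29, adjusted p = 0.00265). PASK, a PAS-domain kinase, had 2.64 and 6.27 CPM with palbociclib and 19.02 and 19.9 CPM with DMSO (−2.11, SE 0.36, adjusted p = 0.00978). In PASK the palbociclib libraries differed from each other by more than the DMSO libraries did, though both lay below them. FST, the secreted activin antagonist follistatin, had 14.5 and 8.57 CPM with palbociclib and 40.5 and 47.1 CPM with DMSO (−1.93, SE 0.27, adjusted p = 0.00346). KIAA1211, an actin-capping inhibitor, fell by 1.91 (SE 0.34, adjusted p = 0.0113), with an adjusted p of 0.0612 without DMSO replicate 1. A last protein-coding gene, known only by a clone name, fell by 1.87 (SE 0.33, adjusted p = 0.0113).

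**Figure D3:**
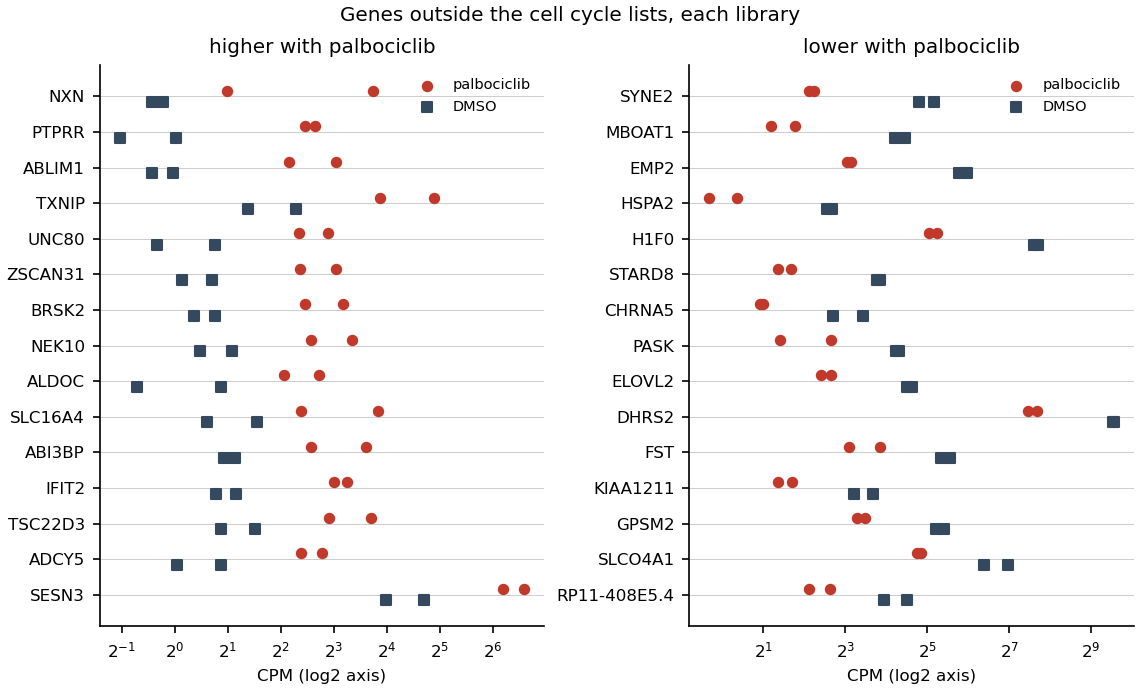
CPM of 30 protein-coding genes outside the cell cycle lists in each library, on a log2 axis, with the 15 largest increases at left and the 15 largest decreases at right. Circles are the 2 palbociclib libraries and squares the 2 DMSO libraries of each gene. The rule that chose the 30 required groups without overlap, and NXN shows the widest gap between its palbociclib libraries, at 1.98 and 13.3 CPM.

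Genes raised by FOXO factors were higher in small number. FOXO factors are held in the cytoplasm by AKT and turn on genes of growth restraint when PI3K signalling is low. Of 39 FOXO targets tested, 5 were higher and none lower, with a median of 0.41 against 0.005 over all 14839 genes. The shares over all 14839 genes were 1.11% higher and 2.44% lower. This list too was chosen with earlier results of these data known. TXNIP, which restrains glucose uptake and binds thioredoxin, had 14.7 and 29.8 CPM with palbociclib and 2.61 and 4.87 CPM with DMSO (2.58, SE 0.38, adjusted p = 0.00446). SESN3, a sestrin that inhibits mTORC1, had 73.6 and 96.2 CPM with palbociclib and 15.7 and 26.04 CPM with DMSO (2.03, SE 0.28, adjusted p = 0.00319). TSC22D3, the glucocorticoid-induced leucine zipper GILZ, had 7.48 and 13.0 CPM with palbociclib and 1.82 and 2.84 CPM with DMSO (2.14, SE 0.36, adjusted p = 0.00912). In these 3 genes palbociclib replicate 2 was the higher of its pair and DMSO replicate 2 the higher of its own. PIK3R3, a regulatory subunit of PI3K, was the most even, at 46.9 and 45.6 CPM with palbociclib and 12.7 and 12.7 CPM with DMSO (1.86, SE 0.20, adjusted p = 0.00163). FBXO32, the ubiquitin ligase atrogin-1, had 44.9 and 45.9 CPM with palbociclib and 21.2 and 23.3 CPM with DMSO (1.03, SE 0.19, adjusted p = 0.0156). Its adjusted p was 0.0576 without palbociclib replicate 2 and 0.0879 without DMSO replicate 1, whereas the other 4 passed in every such fit. Without palbociclib replicate 2 the list had 4 raised genes and a median of 0.35.

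The MYC network list overlaps the FOXO list in TXNIP. It had 3 of 14 genes higher and none lower, against 1.11% and 2.44% of all tested genes. MXD4, a repressor that competes with MYC for its partner MAX, had 165 and 174 CPM with palbociclib and 37.9 and 48.8 CPM with DMSO (1.97, SE 0.22, adjusted p = 0.00163). ARRDC4, an arrestin-like relative of TXNIP that the glucose sensor MondoA also controls, had 2.42 and 2.30 CPM with palbociclib and 0.365 and 0.271 CPM with DMSO (2.86, SE 0.62, adjusted p = 0.0321). The ARRDC4 call ended in 5 of the 6 fits with 1 library left out, at adjusted p of 0.0826 without DMSO replicate 1, 0.0802 without DMSO replicate 2, 0.0515 without palbociclib replicate 2, 0.0906 without pimasertib replicate 1 and 0.0737 without pimasertib replicate 2. MYC itself had 25.5 and 33.4 CPM with palbociclib and 21.4 and 19.4 CPM with DMSO (0.53, SE 0.23, adjusted p = 0.248), without overlap.

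Several raised genes of no list were picked for description after their values were seen, and the YPEL family in the same way. Among all genes outside the cell cycle lists, 1.14% were higher. YPEL5, a small zinc-binding protein of the CTLH ubiquitin ligase, had 62.0 and 76.5 CPM with palbociclib and 20.2 and 26.7 CPM with DMSO (1.56, SE 0.23, adjusted p = 0.0046). YPEL2 rose by 1.59 (SE 0.30, adjusted p = 0.0151, 0.0722 without DMSO replicate 1 and 0.0588 with the 4 libraries alone), and 2 of 5 YPEL genes passed. KLHL24, an adaptor of a ubiquitin ligase for keratin 14, had 33.2 and 49.9 CPM with palbociclib and 12.9 and 17.8 CPM with DMSO (1.44, SE 0.26, adjusted p = 0.0115). FAM214A had 37.8 and 40.7 CPM with palbociclib and 12.5 and 14.4 CPM with DMSO (1.54, SE 0.20, adjusted p = 0.00281). The DMSO libraries lay below the palbociclib libraries throughout.

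Interferon-stimulated genes rose in small number. Of 74 tested, 5 were higher and none lower, with a median of 0.36, and 20 were higher and 2 lower at an unadjusted p under 0.05. Over all tested genes, 1.11% were higher and 2.44% lower at the adjusted threshold, and 8.40% and 9.58% at the unadjusted one. IFIT2, which binds RNA and restrains viral translation, had 7.99 and 9.47 CPM with palbociclib and 1.70 and 2.23 CPM with DMSO (2.15, SE 0.31, adjusted p = 0.00392). SAMD9L, an antiviral translation inhibitor, had 29.3 and 20.6 CPM with palbociclib and 11.2 and 8.52 CPM with DMSO (1.33, SE 0.25, adjusted p = 0.0174). These 2 passed in every fit with 1 library left out (SAMD9L had an adjusted p of 0.0522 with the 4 libraries alone), and the list had 2 raised genes without palbociclib replicate 2. GBP2, DDX58 (the RNA sensor RIG-I) and UBE2L6 (the E2 enzyme for ISG15) rose by 1.05, 0.91 and 0.90, and their adjusted p without palbociclib replicate 2 was 0.154, 0.148 and 0.0589. The GBP2, DDX58 and UBE2L6 calls also ended without DMSO replicate 1 (adjusted p = 0.108, 0.22 and 0.0709), without pimasertib replicate 1 (0.0646, 0.0776 and 0.0756) and without pimasertib replicate 2 (0.0597, 0.0789 and 0.0707). Those of GBP2 and UBE2L6 ended without DMSO replicate 2 (0.0546 and 0.127), and that of UBE2L6 without palbociclib replicate 1 (0.128). None of 20 innate sensing genes passed, and none was higher at an unadjusted p under 0.05, while 2 were lower. Of 27 antigen presentation genes none passed, with 1 in each direction at an unadjusted p under 0.05.

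Raised genes with roles in the cytoskeleton and cell shape were grouped after their values were seen. MYL9, the regulatory light chain of nonmuscle and smooth muscle myosin, had 21.6 and 23.7 CPM with palbociclib and 6.501 and 7.24 CPM with DMSO (1.72, SE 0.23, adjusted p = 0.00307). It was the 1 gene of 44 on the contractile list that passed, where 1.11% of all tested genes were higher. ABLIM1, an actin-binding LIM protein, had 4.47 and 8.23 CPM with palbociclib and 0.972 and 0.744 CPM with DMSO (2.88, SE 0.40, adjusted p = 0.00319). FMN1, a formin that nucleates actin filaments, had 65.9 and 48.7 CPM with palbociclib and 24.2 and 18.1 CPM with DMSO (1.44, SE 0.24, adjusted p = 0.00913). DOCK6, an exchange factor for RAC1 and CDC42, had 32.3 and 22.1 CPM with palbociclib and 9.66 and 9.33 CPM with DMSO (1.52, SE 0.25, adjusted p = 0.00696). SNAI2, the mesenchymal repressor SLUG, had 41.0 and 34.4 CPM with palbociclib and 17.3 and 13.9 CPM with DMSO (1.27, SE 0.25, adjusted p = 0.0185). SNAI2 was the 1 called gene of 11 tested on the mesenchymal marker list. These 5 genes passed with any 1 library left out.

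The next raised genes were grouped after their values were seen, by roles best known from nerve cells, and on the lists of ion channel and axon guidance genes 0 of 49 and 0 of 61 were higher. NEFL, the light neurofilament subunit, had 212 and 268 CPM with palbociclib and 88.2 and 92.7 CPM with DMSO (1.41, SE 0.25, adjusted p = 0.0105). BCAN, the proteoglycan brevican, had 36.1 and 37.3 CPM with palbociclib and 15.9 and 16.03 CPM with DMSO (1.20, SE 0.20, adjusted p = 0.00918). MARK4, a kinase of microtubule-associated proteins, had 66.4 and 62.0 CPM with palbociclib and 27.8 and 26.4 CPM with DMSO (1.24, SE 0.19, adjusted p = 0.00546). All 3 passed with any 1 library left out, and their replicates lay close together. BRSK2, a kinase of neuronal polarity, had 5.50 and 8.96 CPM with palbociclib and 1.28 and 1.69 CPM with DMSO (2.29, SE 0.40, adjusted p = 0.0113), with an adjusted p of 0.0589 without palbociclib replicate 2. UNC80, a subunit of the NALCN sodium leak channel, had 5.06 and 7.39 CPM with palbociclib and 0.790 and 1.69 CPM with DMSO (2.33, SE 0.48, adjusted p = 0.0255). The UNC80 adjusted p was 0.0703 without palbociclib replicate 2, 0.081 without DMSO replicate 1, 0.0511 without pimasertib replicate 1 and 0.0606 without pimasertib replicate 2. SYT15, a synaptotagmin, had 6.6 and 6.38 CPM with palbociclib and 1.94 and 1.49 CPM with DMSO (1.91, SE 0.34, adjusted p = 0.0113). LPHN3, the adhesion receptor latrophilin 3, rose by 1.54 (SE 0.28, adjusted p = 0.0144).

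Further raised genes have roles in signalling and metabolism, again grouped after their values were seen. PTPRR, a tyrosine phosphatase that dephosphorylates ERK, had 6.23 and 5.49 CPM with palbociclib and 0.486 and 1.01 CPM with DMSO (2.96, SE 0.46, adjusted p = 0.00563). DOK4, an adaptor beneath receptor kinases, had 8.14 and 8.96 CPM with palbociclib and 1.76 and 2.64 CPM with DMSO (1.96, SE 0.32, adjusted p = 0.00727). ADCY5, an adenylyl cyclase, had 6.89 and 5.21 CPM with palbociclib and 1.03 and 1.83 CPM with DMSO (2.08, SE 0.43, adjusted p = 0.0247), with an adjusted p of 0.107 without DMSO replicate 1, 0.057 without pimasertib replicate 1 and 0.0625 without pimasertib replicate 2. PTPRR and DOK4 kept their calls in all 6 such fits. CNDP1, a secreted dipeptidase, had 17.3 and 15.4 CPM with palbociclib and 3.71 and 5.14 CPM with DMSO (1.88, SE 0.29, adjusted p = 0.00561). ZSCAN31, a zinc finger factor, had 5.13 and 8.23 CPM with palbociclib and 1.09 and 1.62 CPM with DMSO (2.31, SE 0.35, adjusted p = 0.0053). NEK10, a NIMA-related kinase, had 5.94 and 10.1 CPM with palbociclib and 1.40 and 2.10 CPM with DMSO (2.20, SE 0.41, adjusted p = 0.0149), and its adjusted p was 0.0632 without palbociclib replicate 2. ALDOC, the brain-type aldolase, rose by 2.16 (SE 0.51, adjusted p = 0.0475) but had adjusted p of 0.124 without palbociclib replicate 2, 0.15 without DMSO replicate 1 and 0.108 without either pimasertib replicate. RARB, the retinoic acid receptor beta, had 5.21 and 5.10 CPM with palbociclib and 1.34 and 0.812 CPM with DMSO (2.25, SE 0.43, adjusted p = 0.0174), with an adjusted p of 0.052 without DMSO replicate 2.

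Of the raised genes outside the lists, 8 were more than 2-fold higher in palbociclib replicate 2 than in replicate 1, and 0 were more than 2-fold higher in replicate 1. They were COL11A1, PITPNM3, ADAMTSL3, NXN, SLC16A4, TMSB4X, TXNIP and ABI3BP, and the test without palbociclib replicate 2 divided them. TXNIP and ABI3BP, a matrix protein gene with 5.94 and 12.2 CPM with palbociclib and 2.19 and 1.89 CPM with DMSO, had adjusted p of 0.0031 and 0.0195 without it. COL11A1, a fibrillar collagen gene, had 0.807 and 6.94 CPM with palbociclib and 0 and 0.135 CPM with DMSO, and its adjusted p was 0.0398 with all libraries and 0.345 without palbociclib replicate 2. NXN, the thioredoxin-like nucleoredoxin, had 1.98 and 13.3 CPM with palbociclib and 0.851 and 0.744 CPM with DMSO, and its adjusted p moved the same way, 0.04 with all libraries and 0.207 without it. The log2 fold change of NXN was 3.26 with all libraries and 1.33 without it. For PITPNM3, ADAMTSL3, SLC16A4 and TMSB4X the adjusted p without it was 0.312, 0.173, 0.15 and 0.229. Without DMSO replicate 1 the adjusted p was 0.627 for NXN, 0.123 for COL11A1, 0.0699 for PITPNM3, 0.144 for SLC16A4 and 0.35 for TMSB4X, and without DMSO replicate 2 it was 0.5 for NXN and 0.217 for TMSB4X. Without pimasertib replicate 1 or 2 it lay between 0.0625 and 0.107 for these 6 genes. ABI3BP had an adjusted p of 0.0511 with the 4 libraries alone.

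The collagen and matrix list moved with whichever palbociclib or DMSO library was left out. Of its 66 genes tested, 2 were higher (COL11A1 and TGFBI), against 1.11% of all tested genes, and the list had a median of 0.42. That median was 0.123 without DMSO replicate 1, 0.868 without DMSO replicate 2, and 0.429 and 0.437 without pimasertib replicates 1 and 2. TGFBI, an integrin-binding matrix protein, rose by 1.13 (SE 0.24, adjusted p = 0.0276), and its adjusted p was 0.0542 without palbociclib replicate 2, 0.15 without DMSO replicate 1, 0.0643 without pimasertib replicate 1 and 0.069 without pimasertib replicate 2. Without palbociclib replicate 2 none of 67 passed and the median was 0.000, and without palbociclib replicate 1 16 of 70 passed with a median of 0.72. Without DMSO replicate 1 none of 70 was higher and 1 was lower, and without DMSO replicate 2 12 were higher. COL1A1 had 5.13 and 48.6 CPM with palbociclib and 1.82 and 6.70 CPM with DMSO (adjusted p = 0.118), so the groups overlapped. FN1, fibronectin, had 1065 and 2199 CPM with palbociclib and 403 and 864 CPM with DMSO (adjusted p = 0.119), where replicate 2 was the higher in both groups. The lysosome list showed a like dependence, with a median of 0.36 over 75 genes, none of which passed, and −0.028 without palbociclib replicate 2 and 0.059 without DMSO replicate 1. At an unadjusted p under 0.05, 12 lysosome genes were higher and 2 lower, against 8.40% and 9.58% of all tested genes. None of 14 complement genes passed (3 higher and 0 lower at an unadjusted p under 0.05), and their median was 0.836 with all libraries and −0.635 over 19 genes without palbociclib replicate 2.

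Lists of housekeeping processes held no call. Of 77 cytosolic ribosomal protein genes, 74 had a log2 fold change above 0, with a median of 0.27, and none passed; 4 were higher at an unadjusted p under 0.05. Of 75 nuclear genes of oxidative phosphorylation, 66 lay above 0, with a median of 0.32, and none passed, while 23 were higher and 1 lower at an unadjusted p under 0.05. For these lists the median stayed between 0.185 and 0.365 and between 0.288 and 0.428 when any 1 library was left out. Ribosome biogenesis genes lay the other way: 11 of 56 were above 0, the median was −0.27, and 9 were lower at an unadjusted p under 0.05, though none passed. Their median was −0.079 without DMSO replicate 1, −0.105 without palbociclib replicate 2, −0.426 without palbociclib replicate 1 and −0.435 without DMSO replicate 2, when 2 passed. Over all tested genes, 8.40% were higher and 9.58% lower at an unadjusted p under 0.05. Mitochondrial genes took 4.57% and 6.31% of reads in palbociclib libraries and 3.21% and 5.67% in DMSO libraries, and none of the 13 tested passed, at an adjusted or an unadjusted p under 0.05.

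**Figure D4:**
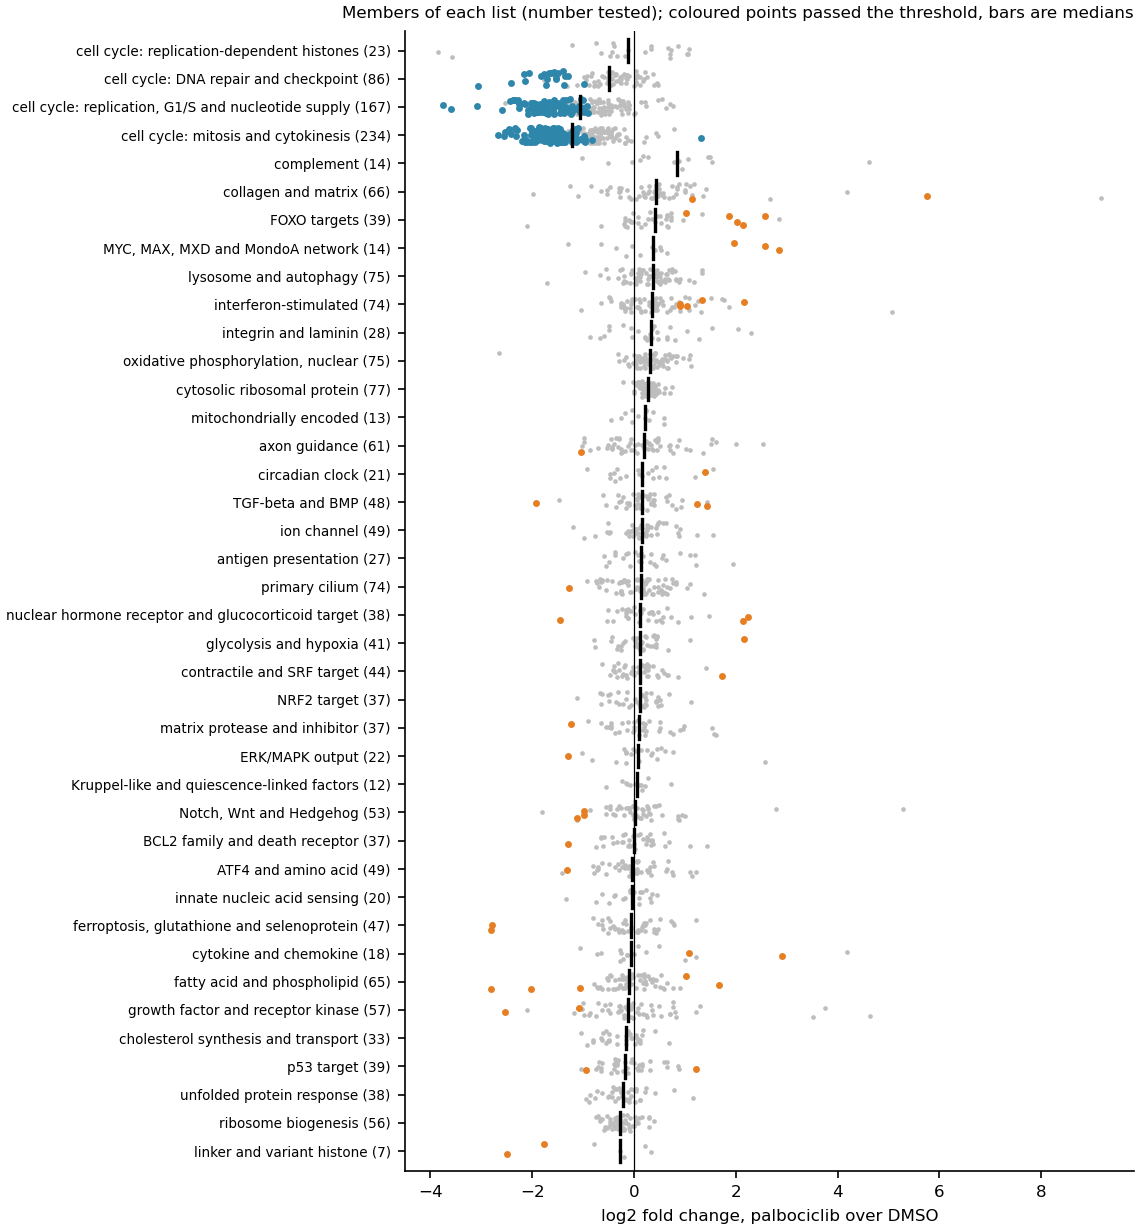
Log2 fold change of palbociclib over DMSO for each tested member of 4 cell cycle lists (top) and 36 other lists, with the number tested in brackets. Coloured points passed the threshold, grey points did not, and black bars are list medians. The 3 lists of replication, mitosis and repair genes have medians of −1.06, −1.22 and −0.495, and the FOXO list has a median of 0.41.

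Developmental, growth factor and stress lists held few calls in either direction. At the adjusted threshold, 1.11% of all tested genes were higher and 2.44% lower. Of 48 TGF-beta and BMP genes, FSTL3, a follistatin relative, and BMP2, a bone morphogenetic protein, were higher and FST lower. The FSTL3 call ended without DMSO replicate 1 (adjusted p = 0.102), palbociclib replicate 2 (0.161), pimasertib replicate 1 (0.0766) and pimasertib replicate 2 (0.0842). BMP2 passed without palbociclib replicate 2 but not without any of the other 5, where its adjusted p lay between 0.0645 and 0.104. Of 53 Notch, Wnt and Hedgehog genes, 3 were lower: FZD1, ZNRF3 and NOTCH1 fell by 1.12, 0.98 and 0.98. Each of these calls ended without DMSO replicate 2 (adjusted p = 0.136, 0.162 and 0.09), palbociclib replicate 1 (0.0894, 0.0974 and 0.0954), pimasertib replicate 1 (0.0848, 0.0848 and 0.065) and pimasertib replicate 2 (0.0953, 0.0934 and 0.066), and those of ZNRF3 and NOTCH1 without palbociclib replicate 2 (0.125 and 0.15). Of 57 growth factor and receptor kinase genes 2 were lower, the neurotrophin receptor NGFR and the ligand NRG1, with adjusted p of 0.163 and 0.0589 without palbociclib replicate 2. The NRG1 call also ended without palbociclib replicate 1 (0.0625), and that of NGFR without DMSO replicate 2 (0.117) and pimasertib replicates 1 and 2 (0.0914 and 0.0959). Of 39 p53 targets 1 was higher (TP53INP1) and 1 lower (FDXR), with adjusted p of 0.221 and 0.0847 without palbociclib replicate 2, 0.13 and 0.061 without DMSO replicate 1, 0.0963 and 0.0585 without pimasertib replicate 1, and 0.102 and 0.0608 without pimasertib replicate 2. FDXR also had 0.129 without palbociclib replicate 1. IL32, a cytokine of low level here, had 2.35 and 2.07 CPM with palbociclib and 0.486 and 0.0676 CPM with DMSO (2.91, SE 0.50, adjusted p = 0.00978), and passed with any 1 library left out, but had an adjusted p of 0.147 with the 4 libraries alone. None of 37 NRF2 targets, 38 unfolded protein response genes or 12 Kruppel-like factors passed. At an unadjusted p under 0.05 these lists had 4, 2 and 1 higher genes and 2, 6 and 0 lower genes. Among all tested genes 8.40% were higher and 9.58% lower at that unadjusted p. Over the 14 lists with no call, which hold 554 genes, 61 were higher and 31 lower at an unadjusted p under 0.05, DESeq2 called 20, and 30 were called with no filter.

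Non-coding genes and pseudogenes gave 11 raised and 7 lowered calls outside the cell cycle lists, by the biotypes in the deposited tables. Those biotypes list NEFL (raised) and the solute carrier gene SLC37A4 (lowered) as processed transcripts, so the counts include genes that encode proteins. RP11-341G5.3, listed by RefSeq as LINC01085, had 11 and 10.1 CPM with palbociclib and 2.67 and 2.30 CPM with DMSO (2.08, SE 0.32, adjusted p = 0.00531). DLEU2, the host of a tumour-suppressing microRNA cluster, had 1.69 and 2.41 CPM with palbociclib and 8.93 and 6.76 CPM with DMSO (−1.93, SE 0.36, adjusted p = 0.0151), with an adjusted p of 0.0653 without DMSO replicate 1. FOXD2-AS1 had 4.55 and 4.03 CPM with palbociclib and 15.7 and 15.1 CPM with DMSO (−1.85, SE 0.27, adjusted p = 0.00406), and its neighbour FOXD2 fell by 1.85 (SE 0.32, adjusted p = 0.0102, and 0.0586 without palbociclib replicate 2). The sources used here do not say whether counting used strand, so reads of such neighbours cannot be told apart. The pseudogenes DDX12P (1.69 and 3.70 CPM with palbociclib, 10.8 and 20.2 CPM with DMSO, adjusted p = 0.0178) and RPLP0P2 (10.2 and 8.07 CPM with palbociclib, 1.94 and 2.23 CPM with DMSO, adjusted p = 0.0065) share sequence with DDX11 and RPLP0, and their values are uncertain for that reason. DDX11, a helicase of sister chromatid cohesion, fell by 1.19 (SE 0.22, adjusted p = 0.0153).

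The direct test of palbociclib against pimasertib asks which of these changes differ between the drugs. It called 1393 genes (9.39%). Both comparisons with DMSO use the same DMSO libraries, so their fold changes are given side by side and only the direct test compares the drugs. The 30 protein-coding genes with the largest palbociclib changes were taken from outside the cell cycle lists. Of these, 1 was higher and 8 were lower in palbociclib than in pimasertib libraries. They were picked by the size of their palbociclib change, and the direct test uses the same palbociclib libraries. Its outcome for them is therefore not independent of that choice. The 1 higher gene, SLCO4A1, had −1.90 with palbociclib and −3.58 with pimasertib. Of the 8, MBOAT1, EMP2, HSPA2, STARD8 and GPSM2 fell with palbociclib, whereas ABLIM1, ZSCAN31 and ABI3BP rose. The last 3 had 2.88, 2.31 and 2.15 with palbociclib and 4.22, 3.97 and 4.19 with pimasertib. HSPA2 had a log2 fold change of −2.52 with palbociclib and −0.08 with pimasertib, each over DMSO, and differed directly by −2.45 (adjusted p = 0.00481). STARD8 had −2.28 with palbociclib and −0.79 with pimasertib (direct adjusted p = 0.00999). GPSM2 had −1.91 with palbociclib and −0.87 with pimasertib (direct adjusted p = 0.013). MXD4, SESN3 and H1F0 had 1.97, 2.03 and −2.50 with palbociclib and 1.99, 2.09 and −2.36 with pimasertib, and their direct adjusted p were 0.961, 0.899 and 0.686. MYL9 had 1.72 with palbociclib and 4.55 with pimasertib, and was lower in palbociclib directly (adjusted p = 6.9e-05).

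Outside the cell cycle lists, 10 genes passed in opposite directions with the 2 drugs and also passed the direct test. Genes on those lists were not searched in this way. ATP1B1 fell with palbociclib, as above, and had 0.87 with pimasertib (direct difference −2.33, SE 0.23, adjusted p = 0.000199). POC1B, a centriolar protein, had 32.9 and 31.5 CPM with palbociclib, 3.46 and 3.69 CPM with pimasertib and 11.3 and 12.4 CPM with DMSO. Its log2 fold change was 1.44 with palbociclib (SE 0.22, adjusted p = 0.0053) and −1.73 with pimasertib. GALNT4, which shares its locus with POC1B, had 1.47 with palbociclib and −1.58 with pimasertib, and reads of the pair cannot be told apart where they overlap. IL1B, the proinflammatory cytokine interleukin-1 beta, had 321 and 313 CPM with palbociclib and 130 and 170 CPM with DMSO (1.08, SE 0.22, adjusted p = 0.0254), and −4.48 with pimasertib. GPR116, an adhesion receptor, had 13.64 and 15.9 CPM with palbociclib and 5.23 and 5.34 CPM with DMSO (1.48, SE 0.28, adjusted p = 0.0175). With pimasertib GPR116 had 1 count in each library, so its fitted change there depends on the prior count. MYEOV, INPP4B and SULT1B1 rose by 1.20, 0.9988 and 2.64 with palbociclib, and MYEOV and INPP4B had −4.62 and −1.31 with pimasertib. SULT1B1 had 2 and 1 counts with pimasertib, so its fitted change there also depends on the prior count. MEX3B and ETS2 fell by 1.74 and 0.85 with palbociclib and had 1.502 and 0.96 with pimasertib. Of the 10 genes, ATP1B1 and POC1B kept the palbociclib call with any 1 library left out. Without palbociclib replicate 2 the adjusted p was 0.0529 for IL1B, 0.0952 for GPR116, 0.109 for MYEOV, 0.133 for SULT1B1, 0.0521 for MEX3B and 0.125 for ETS2. Without DMSO replicate 1 it was 0.146 for IL1B, 0.0729 for GPR116, 0.116 for MYEOV, 0.0983 for SULT1B1, 0.0858 for MEX3B, 0.147 for ETS2 and 0.0844 for GALNT4. Without DMSO replicate 2 it was 0.0572 for MYEOV, 0.0817 for SULT1B1, 0.0632 for ETS2 and 0.111 for INPP4B, and without palbociclib replicate 1 it was 0.0605 for MEX3B, 0.22 for ETS2 and 0.108 for INPP4B. Without a pimasertib library it lay between 0.0542 and 0.0887 for IL1B, SULT1B1, MEX3B, ETS2 and INPP4B.

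**Figure D5:**
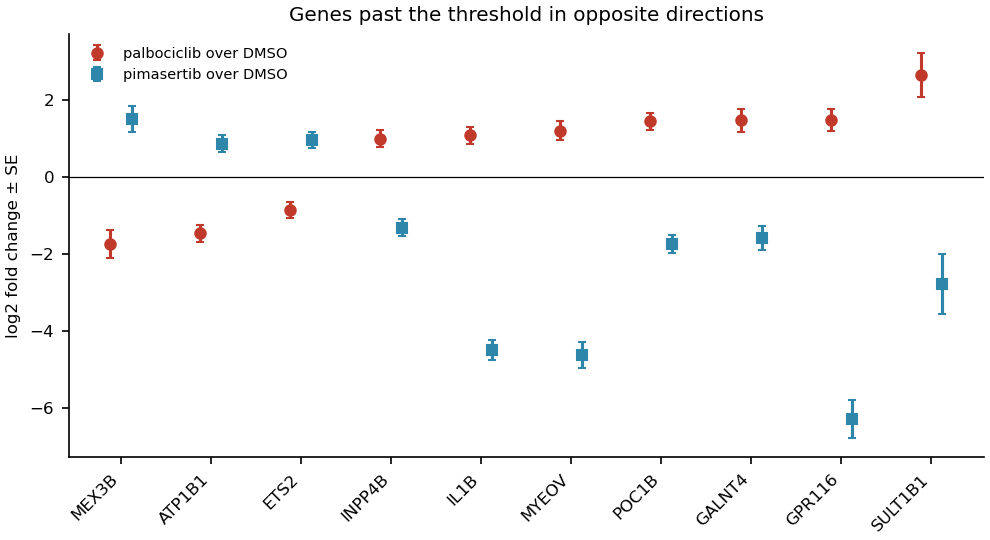
Log2 fold change over DMSO, with standard errors, of 10 genes outside the cell cycle lists. They passed in opposite directions with palbociclib (circles) and pimasertib (squares), in fits that share the DMSO libraries. POC1B lies at 1.44 with palbociclib and −1.73 with pimasertib, and GPR116, at 1 count in each pimasertib library, shows the widest distance, which like that of SULT1B1 depends on the prior count.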

How the data were processed

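Bulk RNA-seq was made from HT-1080 cells in 3 groups of 2 libraries. Whole-number read counts per gene were deposited by the authors in a table for each drug, with the DMSO counts repeated in both, and the tables' DMSO counts were equal for all 22559 shared genes. The authors also deposited log2 fold changes and p-values of their own, used here only to compare calls: 247 of the 290 genes called outside the cell cycle lists were called in the same direction in the authors' deposited table. CASAVA, STAR 2.5, HTSeq 0.6.1, DESeq2, hg19 and GRCh37 are named in the submitters' processing notes. Settings, strandedness and RNA selection are not given in the sources used here.

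The tables were joined on the gene identifier and filtered with filterByExpr (minimum count 10, minimum total 15). The 6 libraries were TMM-normalized and fitted as 3 groups with edgeR 4.0.16 (R 4.3.3, limma 3.58.1, robust quasi-likelihood fit), so that all groups share 1 estimate of spread. Each p-value was adjusted by Benjamini-Hochberg over 14839 genes, with a threshold of 0.05, and the standard error is the log2 fold change divided by the square root of F. The fit was also run on simulated data with known changes. Its libraries were drawn independently, so it cannot speak to an effect shared by replicate number. Without molecular identifiers, the limit of 3 reads covers counting error only. Alternatives were DESeq2 1.42.0, its size factors, no filter, a minimum count of 50, 4 libraries alone, a replicate block, and each library left out.

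Genes were named by rule: outside the cell cycle lists, the 15 protein-coding genes with the largest increase and the 15 with the largest decrease that passed, averaged 50 or more normalized counts and did not overlap between groups. The rule added 3 of other biotypes in each direction, up to 4 passing members per list and direction, the 3 most lowered genes per cell cycle list, and 10 fixed genes such as CDK4, MKI67 and GPX4. All other genes described, apart from list members counted as such, were chosen after their values were seen. The members and lists were chosen with earlier results of these data known. Promoters are from RefSeq (GRCh38.p14), matched by symbol for 10779 of 14839 tested genes, and gene positions in the deposited tables are on GRCh37.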

Additional observations from a re-analysis of the deposited data

How the results depend on the processing

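All genes called, higher and lower were 526, 164 and 362. With no filter they were 1097, 518 and 579, with DESeq2 883, 355 and 528, and with the 4 libraries alone 325, 65 and 260. Outside the cell cycle lists (290, 163 and 127) they were 804, 516 and 288 with no filter, 605, 353 and 252 with DESeq2, and 124, 64 and 60 with the 4 libraries alone. With 1 library left out, the ranges were 334 to 762, 61 to 386 and 259 to 432 for all genes, and 131 to 519, 60 to 382 and 63 to 174 outside the lists. DESeq2 size factors and the minimum count of 50 moved none of these counts by more than 1.5 times. The cause of these shifts was not tested. The labels share only replicate numbers, and library 2 minus library 1 correlated over genes at 0.397 between palbociclib and DMSO, 0.345 between palbociclib and pimasertib and 0.351 between DMSO and pimasertib. With the replicate number as a block, 2953 genes were called (1283 higher, 1670 lower), and 2568 outside the lists (1274 higher, 1294 lower). Over 14 lists with no call (554 genes) the block called 146, among them 22 higher lysosome genes, 25 higher oxidative phosphorylation genes and 18 lower ribosome biogenesis genes. For 85 named genes, 1018 pairs of a gene and an alternative were computed, of which 834 kept direction and side of the threshold, 180 kept direction only, 4 passed where the reported fit did not, and 0 reversed.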

Other observations

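Gene families that belong to no list were looked at after the values were seen. Of 361 tested ZNF zinc finger genes, 227 had a log2 fold change above 0, 6 were higher and none lower, with a median of 0.122. Over all genes outside the cell cycle lists, 1.14% were higher and 0.886% lower, with a median of 0.023. The family was not counted without palbociclib replicate 2. Under the filter, ZNF320 and ZNF677 had 0 counts in palbociclib replicate 1 and 45 and 44 in replicate 2. Of 16 nucleoporin NUP genes 1 lay above 0, and NUP62, of the central channel, had 42.9 and 39.2 CPM with palbociclib and 92.9 and 72.2 CPM with DMSO (−1.01 on the log2 scale, SE 0.21, adjusted p = 0.0248 by edgeR's quasi-likelihood test). The NUP62 adjusted p was 0.146 without palbociclib replicate 2, 0.135 without DMSO replicate 1, and 0.0588 and 0.0599 without pimasertib replicates 1 and 2. Of 15 aldehyde dehydrogenase genes, ALDH2, ALDH1A3 and ALDH3B1 were higher, by 1.97, 1.26 and 0.92, and their adjusted p was 0.0836, 0.0625 and 0.0761 without palbociclib replicate 2 and 0.11, 0.0759 and 0.123 without DMSO replicate 1. ALDH2 and ALDH3B1 also had 0.0956 and 0.0657 without pimasertib replicate 1 and 0.101 and 0.0625 without pimasertib replicate 2, and ALDH3B1 had 0.0828 without DMSO replicate 2 and 0.119 without palbociclib replicate 1. Of 75 MRPL and MRPS genes of the mitochondrial ribosome, 33 lay above 0, with a median of −0.031 and no call.

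Of 11447 genes under the filter, 100 had at least 20 reads in the palbociclib libraries together and at most 3 in the DMSO libraries, against 16 the other way. Of the 100, 67 had 0 counts and 80 had 3 counts or fewer in palbociclib replicate 1, and 7 made up a larger share of replicate 1 than of replicate 2. H19, an imprinted non-coding RNA, had 0 and 482 counts with palbociclib and 0 and 0 counts with DMSO. Genes read in DMSO libraries only included the S-phase histone gene HIST1H4C.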
